A study of Mus musculus with 5 samples.

Results

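The genes described here are the interleukins, the chemokines and the TNF superfamily ligands, with the receptors that carry an Il, Ccr or Cxcr symbol. They were chosen by name alone: every probe whose gene symbol in the platform annotation starts with Il, Ccl, Cxcl, Ccr, Cxcr or Tnfsf followed by a digit. This gave 154 of 21876 probes that name a gene, and 135 of 19084 genes. Transcript levels were read on 5 single-colour mouse arrays. The MEF array held RNA of fibroblasts from mouse embryos of 13.5 days post coitus, transduced with a mock vector. The 2 iLC arrays held such fibroblasts carrying lentiviral Dmrt1, Gata4 and Nr5a1, which the submitters call induced Leydig-like cells. The 2 Leydig arrays held Leydig cells isolated from testes of mice aged 56 days. Per the labels' protocols, fibroblasts for induction were exposed to virus for 12 hours and moved to a medium with PDGFAA (10 ng/ml) and IGF (50 ng/ml). Whether MEF received it too, how long iLC were cultured and which mouse strain was used are not stated in the labels. The fibroblasts came from minced embryos without head and viscera and no sorting is described, so cells of other kinds could be present. By role, the 135 genes are 36 interleukins, 34 interleukin receptor chains, 6 antagonists and decoy receptors, 5 ELR-type and 8 other CXC chemokines, 17 CC chemokines, 16 chemokine receptors, 11 TNF superfamily ligands, and 2 others, the enzyme gene Il4i1 and the antisense transcript Il1bos. All 135 were tested, with no filter on low values.

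Interleukins are secreted signals between cells, first known from leukocytes and also made by fibroblasts. IL-6, IL-11 and LIF act through a shared receptor chain, gp130, and JAK-STAT signalling, whereas the IL-1 family acts through NF-kappa-B. Chemokines direct cell migration: CXC chemokines with the Glu-Leu-Arg (ELR) motif attract neutrophils, and CC chemokines attract monocytes, T cells or eosinophils. TNF superfamily ligands control survival and differentiation, and Tnfsf11, also called RANKL, drives osteoclast formation. In the testis, cytokines pass between Leydig cells and the macrophages that lie beside them.

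Median intensities were close, from 1111 to 1230.0, but the low ends of the arrays differed, and between 77 and 81 of the 135 genes read below the median of an array. A difference of dim probes can therefore come from unequal low ends, and levels of different probes are not compared with each other. With 1 MEF array, the error of every MEF comparison comes from the spread within the other groups. The labels do not state whether replicate arrays are from different cultures or mice, so p-values reflect array-to-array spread, which may be technical, and their number limits the precision of every value. Of 9 measured Leydig cell markers, limma called 5 higher in Leydig cells than in MEF and 0 lower, beside 3.34% and 3.97% of all genes. The 5 were Cyp17a1, Hsd3b1, Nr5a1, Gata4 and Fdx1. Cyp11a1, at 509.8 and 451 on the Leydig arrays, did not exceed its MEF reading of 562. Hsd17b3, at 1124 and 3680 there, lay on both sides of its MEF reading of 2165. Against Leydig cells, 4 were lower in iLC and 0 higher, beside 5.65% and 5.72% of all genes: Cyp17a1 (-5.62), Nr5a1 (-5.37), Gata4 (-4.06) and Hsd3b1 (-2.24). Between iLC and MEF, limma called 2 of the 9 measured markers higher and 0 lower, beside 0.278% and 0.283% of all genes. The 2 markers were Hsd3b1, with a log2 difference of 5.18 (adjusted p = 0.033), and Fdx1, with 3.53 (adjusted p = 0.0388). Star read 695 in MEF against 56878 and 73892 in iLC but did not pass (adjusted p = 0.107). Both iLC arrays exceeded the MEF array for 5 of the 9 and lay below it for 1, beside 34% and 44.4% of all genes. Probes of the delivered genes read no higher in iLC than in MEF by the test: Nr5a1 read 1265 in MEF against 1509 and 1158 in iLC, with adjusted p = 0.964, Gata4 had adjusted p = 0.368 and Dmrt1 0.954. The labels do not say whether these probes lie within the delivered sequences, so they check nothing about delivery. Leydig replicate 2 stood apart in germ cell transcripts: 11 measured germ cell markers summed to 9446 in MEF, 11187 and 10547 in iLC, then 36979 and 504995 in Leydig cells. These groups are bulk samples, in which fewer cells of a type and less RNA per cell cannot be told apart.

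Between iLC and MEF, 4 of the 135 genes were higher and 1 was lower at an adjusted p under 0.05 (limma, Benjamini-Hochberg over all genes). That is 3.7% of these genes, beside 0.561% of all genes (0.278% higher and 0.283% lower). The higher genes were Il6, Cxcl1, Tnfsf11 and Ccl17. The lower gene was Ccl3, a chemokine of activated macrophages. The median difference over the 135 genes was -0.01 on the log2(value + 16) scale, beside -0.11 over all genes. All differences below are on that scale.

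Il6, the gene of the acute-phase cytokine IL-6, read 743 in MEF, 30289 and 37346 in iLC, then 145 and 118 in Leydig cells. The iLC arrays read far above all others, the Leydig arrays lay lowest, and no groups overlapped. The log2 difference between iLC and MEF was 5.47 ± 0.39 (SE, adjusted p = 0.0169). Cxcl1, a neutrophil attractant of the ELR type, read 1613 in MEF, 42279 and 45389 in iLC, then 9404 and 22186 in Leydig cells, a difference of 4.75 ± 0.56 (SE, adjusted p = 0.0383). Tnfsf11 read 1711 in MEF, 32464 and 23150.0 in iLC, then 788 and 784 in Leydig cells, a difference of 3.99 ± 0.40 (SE, adjusted p = 0.0281). Both iLC arrays exceeded every other array for these genes. Ccl17, which attracts T cells through the receptor Ccr4, read 907 in MEF, 48780.1 and 18639 in iLC, then 1088 and 1988 in Leydig cells, a difference of 5.03 ± 0.67 (SE, adjusted p = 0.0474). For Ccl17 the iLC arrays were further apart than for Il6 and Cxcl1, yet both lay above the MEF and Leydig arrays. The calls of these 4 genes and of Ccl3 were lost when any 1 of the 4 arrays of iLC or Leydig cells was omitted, which takes 1 of 2 residual degrees of freedom, and in the fit with iLC and MEF arrays alone. An added offset of 4 ended all but that of Il6, and averaging probes per gene ended those of Ccl17 and Ccl3. They were also lost when the low ends of the arrays were aligned, where the differences were 5.64 with adjusted p = 0.0603 for Il6, 4.83 with adjusted p = 0.102 for Cxcl1, 4.06 with adjusted p = 0.0804 for Tnfsf11, 5.17 with adjusted p = 0.121 for Ccl17 and -3.41 with adjusted p = 0.105 for Ccl3.

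**Figure D1:**
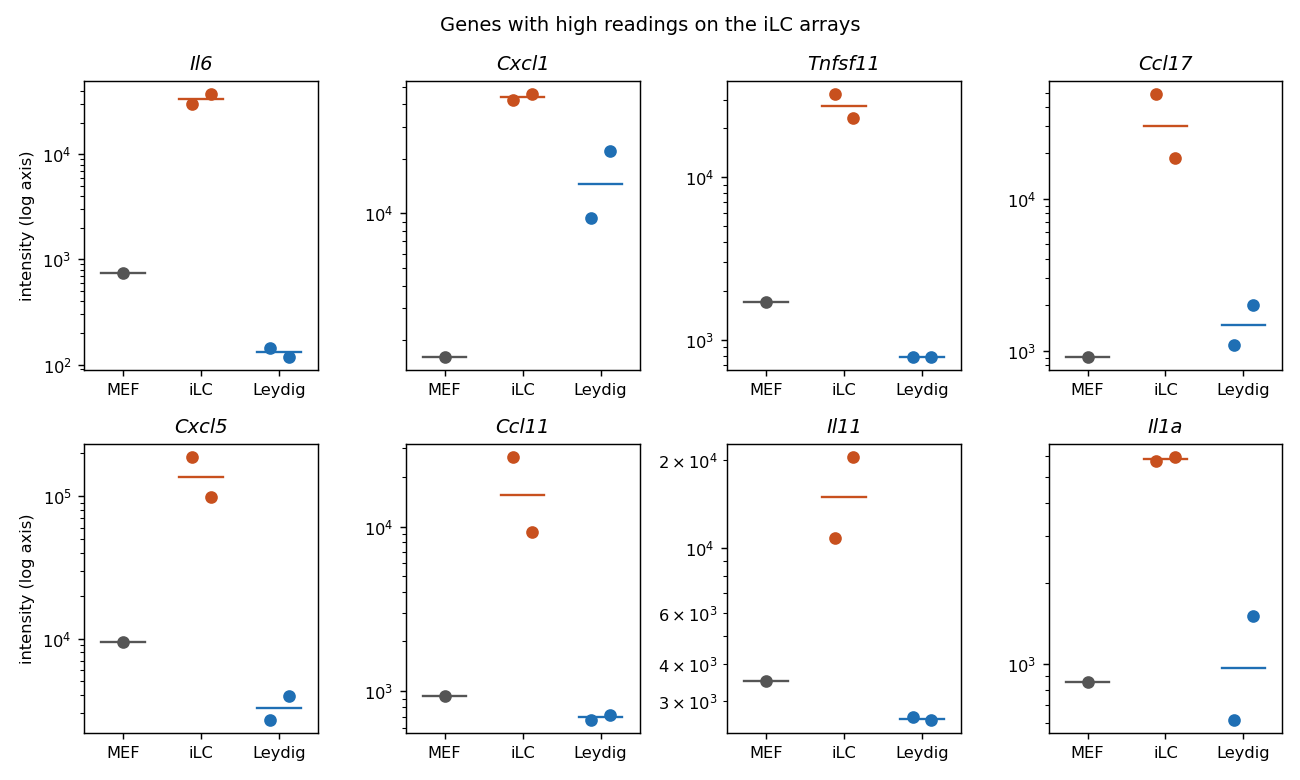
Probe intensity (log axis) of 8 genes on the 5 arrays, 1 point per array, with a line at each group's geometric mean. In every panel both iLC points lie above the MEF point and above both Leydig points; for Il6 they are at 30289 and 37346.

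The stretches before the transcription starts of the 5 genes that differed between iLC and MEF are shown because these genes carry that comparison. Each is the 250 bases before the RefSeq start, on build GRCm38.p6, read along the gene from 5′ to 3′. Il6 lies at chr5:30012864-30013113 on the plus strand, Cxcl1 at chr5:90890995-90891244 on the plus strand, Tnfsf11 at chr14:78308044-78308293 on the minus strand, Ccl17 at chr8:94810203-94810452 on the plus strand and Ccl3 at chr11:83649379-83649628 on the minus strand. Capitals mark matches to 4 motifs searched on both strands: the NF-kappa-B consensus, the AP-1 site TGANTCA, the NR5A1 site AAGGTCA and the GATA site AGATAA. The motifs were chosen after the values were seen.
Il6: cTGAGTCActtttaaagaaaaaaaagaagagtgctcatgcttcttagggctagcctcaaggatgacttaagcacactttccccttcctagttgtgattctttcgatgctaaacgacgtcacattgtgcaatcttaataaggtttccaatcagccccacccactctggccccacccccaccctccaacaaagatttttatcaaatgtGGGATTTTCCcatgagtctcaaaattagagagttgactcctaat
Cxcl1: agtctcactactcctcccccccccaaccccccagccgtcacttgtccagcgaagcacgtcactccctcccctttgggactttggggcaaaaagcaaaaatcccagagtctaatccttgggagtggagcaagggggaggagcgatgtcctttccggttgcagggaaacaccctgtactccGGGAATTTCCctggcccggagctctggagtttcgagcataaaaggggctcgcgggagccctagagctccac
Tnfsf11: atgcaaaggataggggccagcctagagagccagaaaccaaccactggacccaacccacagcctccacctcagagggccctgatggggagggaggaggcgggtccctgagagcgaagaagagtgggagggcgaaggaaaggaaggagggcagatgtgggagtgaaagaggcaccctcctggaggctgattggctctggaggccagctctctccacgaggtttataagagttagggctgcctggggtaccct
Ccl17: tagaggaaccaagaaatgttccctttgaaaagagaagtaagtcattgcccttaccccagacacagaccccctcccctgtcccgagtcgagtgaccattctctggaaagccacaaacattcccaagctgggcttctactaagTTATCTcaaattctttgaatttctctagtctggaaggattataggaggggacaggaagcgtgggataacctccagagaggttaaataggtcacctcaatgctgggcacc
Ccl3: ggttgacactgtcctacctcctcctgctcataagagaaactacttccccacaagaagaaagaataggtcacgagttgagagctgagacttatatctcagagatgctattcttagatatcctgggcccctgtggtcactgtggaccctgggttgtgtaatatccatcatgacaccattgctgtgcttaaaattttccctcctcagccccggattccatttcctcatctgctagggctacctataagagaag
The Il6 stretch held an NF-kappa-B match, GGGATTTTCC, 44 to 35 bases before the start, and an AP-1 match, TGAGTCA, 249 to 243 bases before it. The Cxcl1 stretch held the NF-kappa-B match GGGAATTTCC, 71 to 62 bases before the start. Ccl17 held a GATA match on the opposite strand, TTATCT, 109 to 104 bases before the start, and the Tnfsf11 and Ccl3 stretches held no match to these letters. Of 32851 such windows in RefSeq, 5% held the NF-kappa-B consensus, 6.75% the AP-1 site, 4.08% the NR5A1 site and 9.99% the GATA site. Of the 117 windows of 101 of the 135 genes, 11.1%, 17.9%, 3.42% and 15.4% held them, in that order. A match is a run of letters and no evidence of binding.

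Between iLC and Leydig cells, 15 of the 135 genes were higher and 10 lower. That is 18.5% of these genes, beside 11.4% of all genes (5.72% higher and 5.65% lower). Higher in iLC were Il6, Cxcl5, Tnfsf11, Ccl11, Ccl17, Ccl6, Il33, Il4ra, Ccl7, Il1a, Ccl20, Il11, Cxcl14, Il12b and Il20ra. Lower in iLC were Ccl5, Il18bp, Il20rb, Ccl4, Ccl22, Ccl3, Tnfsf10, Ccr7, Il16 and Il15. Between Leydig cells and MEF, 5 genes were higher (Il18bp, Ccl5, Cxcl1, Tnfsf10 and Il15ra) and 4 lower (Ccl12, Ccl20, Il6 and Il17rd), which is 6.67% of these genes beside 7.3% of all genes (3.34% higher and 3.97% lower). At an unadjusted p under 0.05, 40 of the 135 genes passed between iLC and MEF, beside 15.7% of all genes. The same count was 51 between iLC and Leydig cells, beside 26.9%, and 31 between Leydig cells and MEF, beside 19.8%. Without Leydig replicate 2, which had the higher germ cell sum of the Leydig arrays, 6 were higher and 3 lower between iLC and Leydig cells, beside 1.75% and 1.9% of all genes. Between Leydig cells and MEF, limma then called 0 of the 135 genes, beside 0.414% higher and 0.388% lower of all genes (27 of the 135 at an unadjusted p under 0.05). The 3 comparisons share arrays and are not independent.

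**Figure D2:**
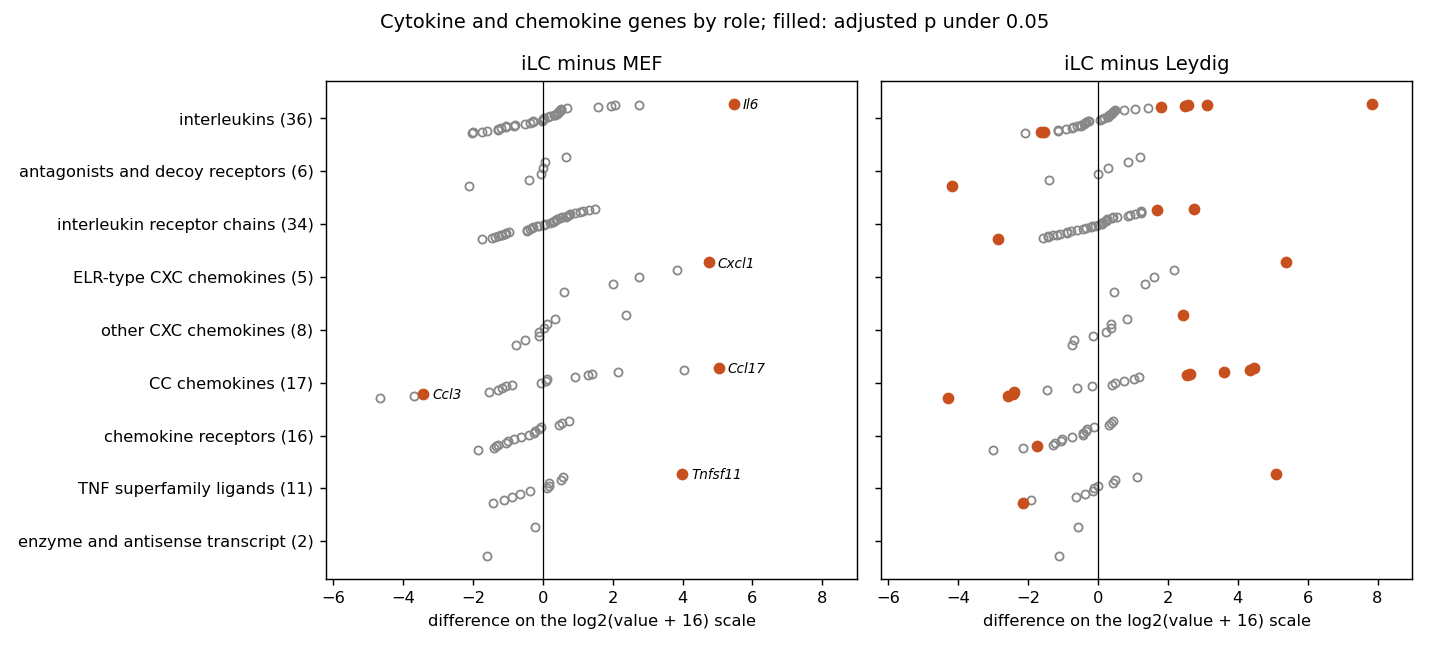
Difference of each of the 135 genes on the log2(value + 16) scale, grouped by role with the number of genes in brackets; filled points have an adjusted p under 0.05. The left panel has 5 filled points, named beside them, and the right panel 25, with Il6 at 7.84 farthest to the right.

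Among the 36 interleukins, Il6 had the largest difference in both comparisons with iLC, and between iLC and Leydig cells 5 were higher and 2 lower. Il6 was higher in iLC than in Leydig cells by 7.84 ± 0.32 (SE, adjusted p = 0.000874), and lower in Leydig cells than in MEF, with a difference of -2.37 ± 0.39 (SE, adjusted p = 0.02), so the order of its levels was iLC, MEF, Leydig with each step past the test. Il11, a gp130 cytokine that acts on stromal cells, read 3511 in MEF, 10833 and 20421 in iLC, then 2636 and 2589 in Leydig cells. Both iLC arrays lay above the rest, with a difference of 2.50 ± 0.39 (SE, adjusted p = 0.0126) from Leydig cells and 2.08 ± 0.48 (SE, adjusted p = 0.128) from MEF, which did not pass. The shared receptor chain Il6st (gp130) read 45567 in MEF, 19119.6 and 16502 in iLC, then 75269.9 and 30897 in Leydig cells, and the IL-6 receptor Il6ra 2008 in MEF, 2115 and 1025 in iLC, then 2374 and 8324 in Leydig cells; neither passed in any comparison. For Il6st the iLC arrays lay below all others, and for the Il6ra probe used the MEF array lay between the iLC arrays. Calls of Il11 against Leydig cells ended on omitting iLC replicate 2, Leydig replicate 1 or Leydig replicate 2 (up to adjusted p = 0.103), and those of Il6 between Leydig cells and MEF when either Leydig array was left out (highest adjusted p = 0.102). Il6 kept its call against Leydig cells without any 1 array.

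Of 9 measured gp130 ligands and receptors outside the naming rule, none passed between iLC and MEF (1 had an unadjusted p under 0.05), and 1 was higher and 2 lower in iLC than Leydig cells (median difference 0.73, beside -0.03 over all genes). Lif, the leukemia inhibitory factor, read 3081 and 6623 in iLC against 1168 and 979 in Leydig cells, a difference of 2.06 (adjusted p = 0.033). Its receptor chain Lifr read 3177 in MEF, 1966 and 1318 in iLC, then 101798 and 75551 in Leydig cells, a difference of -5.75 (adjusted p = 0.00109) between iLC and Leydig cells. Cntf, a neurotrophic ligand of this family, differed by -3.80 (adjusted p = 0.00204). The Leydig arrays had the highest Lifr and the lowest Lif readings. Lifr and Cntf were also higher in Leydig cells than in MEF, by 4.78 (adjusted p = 0.00432) and 4.68 (adjusted p = 0.00399). Of 16 genes of JAK-STAT signalling and its SOCS inhibitors, none passed between iLC and MEF (3 at an unadjusted p under 0.05) and 3 were lower in iLC than Leydig cells: Stat2 (-3.64), Stat5b (-2.08) and Jak3 (-2.06). Stat3, which carries the IL-6 signal and was named after its values were seen, read 3843 in MEF, 11209 and 14849 in iLC, then 9958 and 15682 in Leydig cells, and Socs3, its feedback inhibitor, named in the same way, read 12800.4 in MEF, 14343 and 14999 in iLC, then 8849 and 10434 in Leydig cells. Neither passed in any comparison.

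In the IL-1 family, Il1a and Il33, ligands that cells can release on damage, were higher in iLC than in Leydig cells. Il1a read 856 in MEF, 5734 and 5956 in iLC, then 618 and 1507 in Leydig cells, a difference of 2.58 ± 0.47 (SE, adjusted p = 0.0197) from Leydig cells and 2.75 (adjusted p = 0.101) from MEF. Il33 read 727 in MEF, 2424 and 3333 in iLC, then 476 and 201 in Leydig cells, a difference of 3.13 ± 0.47 (SE, adjusted p = 0.0102) from Leydig cells and 1.94 (adjusted p = 0.194) from MEF. For both genes the iLC arrays lay above every other array. Il1b, which shares its receptor with Il1a and lies close to it in gene order, read 2299.7 in MEF, 2658 and 2636 in iLC, then 3466 and 3264 in Leydig cells and did not pass in any comparison. The receptor Il1r1 spanned 23719 to 30556 over the 5 arrays, with these extremes on the iLC arrays, and the antagonist Il1rn 267 to 658. Differences of Il1r1 were -0.10 between iLC and MEF and 0.00 between iLC and Leydig cells.

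Il18, a ligand that induces interferon-gamma, read 1622 in MEF, 2189.7 and 2477 in iLC, then 5024 and 5321 in Leydig cells, and its secreted binding protein Il18bp 844 in MEF, 540.4 and 767 in iLC, then 12791 and 11258 in Leydig cells. The Leydig arrays were highest for both. Il18bp was lower in iLC than Leydig cells by a difference of -4.19 ± 0.33 (SE, adjusted p = 0.00162), while Il18 had -1.15 (adjusted p = 0.0641). Il18bp was higher in Leydig cells than in MEF by 3.80 ± 0.41 (SE, adjusted p = 0.00606), a call lost without Leydig replicate 2. The co-receptor Il1rap had its brightest probe at 7373 in MEF, 6589 and 5339 in iLC, then 2461 and 2619.7 in Leydig cells, and a difference of 1.22 (adjusted p = 0.0583) between iLC and Leydig cells. Calls of Il1a against Leydig cells were lost when either iLC array or Leydig replicate 1 was left out (highest adjusted p = 0.0922) and those of Il33 on omitting either replicate 2 (up to adjusted p = 0.062).

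Of 24 measured genes of IL-1, Toll and NF-kappa-B signalling, none passed between iLC and MEF (2 at an unadjusted p under 0.05; median difference 0.05, beside -0.11 over all genes). Between iLC and Leydig cells 1 was higher, Nfkbiz (2.66), a nuclear cofactor for Il6 transcription, and 2 were lower, the RNA sensor Tlr3 (-3.02) and the NF-kappa-B subunit Relb (-1.56). Nfkbiz read 10837 in MEF, 17703 and 31491 in iLC, then 4566 and 3048 in Leydig cells, highest on the iLC arrays. Between Leydig cells and MEF 4 were higher: Tlr3 (2.86), Relb (2.32), Irak3 (2.16) and Nfkbia (1.96).

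Of the other interleukins, Il12b, Il15 and Il16 differed between iLC and Leydig cells. Il12b, the p40 subunit of IL-12 and IL-23, was higher in iLC, with readings of 4028 and 4041 in iLC against 1319 and 1006 in Leydig cells and a difference of 1.79 ± 0.32 (SE, adjusted p = 0.0182). Il15, a growth factor of natural killer cells, was lower, with 2348 and 1656 in iLC against 6963 and 4855 in Leydig cells and a difference of -1.55 ± 0.36 (SE, adjusted p = 0.0439). Il16, a T cell attractant, was lower, with a difference of -1.64 ± 0.39 (SE, adjusted p = 0.046). Each of these calls was lost when any 1 of the 4 arrays of iLC or Leydig cells was omitted (highest adjusted p = 0.106, 0.178 and 0.179), and those of Il15 and Il16 also with an added offset of 4 and with aligned low ends (-1.55 with adjusted p = 0.0663 and -1.61 with adjusted p = 0.0802). Il7, a lymphocyte growth factor, read 1352 in MEF, 2073 and 1606 in iLC, then 2205 and 3524 in Leydig cells, and Il34, a ligand of the macrophage receptor Csf1r, 776 in MEF, 945 and 1306 in iLC, then 1021 and 2063 in Leydig cells. Neither passed in any comparison, and the highest reading of each was on Leydig replicate 2. Il1rl1, the receptor of IL-33, had no named probe.

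Of the 34 interleukin receptor chains, none passed between iLC and MEF (9 at an unadjusted p under 0.05), with differences from -1.73 for Il1rapl2 to 1.51 for Il4ra. Between iLC and Leydig cells 2 were higher and 1 lower. Il4ra, the receptor chain for IL-4 and IL-13, read 4268 in MEF, 16069 and 9197 in iLC, then 1358 and 2322 in Leydig cells, a difference of 2.76 ± 0.43 (SE, adjusted p = 0.0123). Il20ra and Il20rb encode the chains that pair in the IL-20 receptor, and they went opposite ways. Il20ra read 653 in MEF, 1801 and 1554 in iLC, then 567 and 459 in Leydig cells and was higher in iLC than in Leydig cells by 1.68 ± 0.31 (SE, adjusted p = 0.0221). Il20rb read 7732 in MEF, 5424 and 2465 in iLC, then 22776 and 31384 in Leydig cells and was lower, with a difference of -2.86 ± 0.46 (SE, adjusted p = 0.013). The Leydig arrays were thus the lowest for the alpha chain and the highest for the beta chain. Il15ra, the receptor of IL-15, was higher in Leydig cells than in MEF by 2.33 (adjusted p = 0.033), and Il17rd, an inhibitor of growth factor signalling, lower, with a difference of -2.19 (adjusted p = 0.0439). Il17ra, the shared receptor chain for IL-17 ligands, read 8898 in MEF, 11746 and 17341 in iLC, then 20315 and 13382 in Leydig cells and did not pass in any comparison. Leaving out 1 array ended the calls of Il4ra in 3 cases (iLC replicate 1 and either Leydig array), of Il20rb in 3 (iLC replicate 2 and either Leydig array) and of Il20ra, Il15ra and Il17rd for any of the 4 iLC and Leydig arrays (highest adjusted p = 0.0773, 0.118, 0.122, 0.117 and 0.181). Il15ra and Il17rd also lost theirs with aligned low ends (2.41 with adjusted p = 0.0519 and -2.20 with adjusted p = 0.0701), and Il17rd with an added offset of 4 (-2.20 with adjusted p = 0.0606).

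The 5 ELR-type CXC chemokines all read higher on both iLC arrays than on the MEF array and on both Leydig arrays. Such a position above the MEF array was found for 34% of all genes, and above both Leydig arrays for 28.9%. Their median difference was 2.76 between iLC and MEF and 1.60 between iLC and Leydig cells, of which 1 of 5 passed in each comparison. Cxcl5, an epithelial and stromal attractant of neutrophils, read 9484 in MEF, 189210.0 and 98380.2 in iLC, then 2692 and 3935 in Leydig cells. It was higher in iLC than in Leydig cells by 5.38 ± 0.43 (SE, adjusted p = 0.00163) and kept that call without any 1 array, while its difference from MEF was 3.84 ± 0.53 (SE, adjusted p = 0.0501). Cxcl1 differed between iLC and Leydig cells by 1.60 (adjusted p = 0.0806) and was higher in Leydig cells than in MEF by 3.15 ± 0.56 (SE, adjusted p = 0.0257). That last call was lost when either iLC array or Leydig replicate 2 was left out, and with aligned low ends (3.22 with adjusted p = 0.0536). Cxcl3 read 609 in MEF, 2799 and 6319.8 in iLC, then 480.1 and 1739 in Leydig cells and Cxcl2 701 in MEF, 3067 and 2643 in iLC, then 682 and 1787 in Leydig cells. Neither passed, and the iLC arrays lay above the rest for both.

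Of the 8 other CXC chemokines, 1 passed between iLC and Leydig cells and none between iLC and MEF (1 at an unadjusted p under 0.05). Cxcl14, a chemokine of skin and stroma, read 13576 in MEF, 89839 and 56002 in iLC, then 16708 and 10187 in Leydig cells. It was higher in iLC than in Leydig cells by 2.44 ± 0.41 (SE, adjusted p = 0.0153), a call that ended on omitting iLC replicate 1 or Leydig replicate 2 (up to adjusted p = 0.109), and its other probe went the same way in both comparisons. Cxcl12, which retains stem and immune cells through Cxcr4, read 54474 in MEF, 69423 and 50259.8 in iLC, then 30846 and 81192 in Leydig cells, with the groups overlapping. Cxcl16, a membrane-bound ligand, read 8544 in MEF, 9646 and 12277 in iLC, then 19995 and 15217 in Leydig cells and did not pass. Cxcl10, an interferon-induced T cell attractant, was dim on every array, between -10.1 and 159.9, and gives no order.

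The 17 CC chemokines had the widest range of any role between iLC and MEF, from -4.67 for Ccl12 to 5.03 for Ccl17. Between iLC and Leydig cells 9 of them passed, 5 higher and 4 lower, beside 5.72% higher and 5.65% lower of all genes. Higher in iLC than in Leydig cells were Ccl11 by 4.47 ± 0.53 (SE, adjusted p = 0.00467), Ccl17 by 4.34 ± 0.55 (SE, adjusted p = 0.00596), Ccl6 by 3.60 ± 0.67 (SE, adjusted p = 0.0216), Ccl7 by 2.63 ± 0.35 (SE, adjusted p = 0.00682) and Ccl20 by 2.54 ± 0.33 (SE, adjusted p = 0.00662). Ccl11, also called eotaxin, an attractant of eosinophils, read 928 in MEF, 26498 and 9210.3 in iLC, then 669 and 715 in Leydig cells, and its difference from MEF was 4.05 ± 0.64 (SE, adjusted p = 0.0646). The 2 iLC arrays were far apart for it, and both lay above all others. Ccl2 and Ccl7 attract monocytes through Ccr2. Ccl2 read 75399 in MEF, 205022 and 195162 in iLC, then 93944 and 148794 in Leydig cells and did not pass, although both iLC arrays lay highest. Ccl7 read 37569 in MEF, 105581 and 80336 in iLC, then 12496 and 17639 in Leydig cells and, with Ccl20, kept its call against Leydig cells without any 1 array.

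Ccl6, a macrophage chemokine, read 2898 in MEF, 2655 and 11385 in iLC, then 485 and 396 in Leydig cells, with iLC replicate 2 above all others. Ccl20, the ligand of Ccr6, read 1332 in MEF, 485 and 605 in iLC, then 66.7 and 95.0 in Leydig cells, so its MEF array was highest and it was lower in Leydig cells than in MEF, with a difference of -3.81 ± 0.41 (SE, adjusted p = 0.00604), a call lost without Leydig replicate 2. Ccl11 and Ccl17 lost their calls against Leydig cells when either Leydig array was left out (highest adjusted p = 0.0681 and 0.0574), as did Ccl6 (0.169), which also lost its call with aligned low ends (3.70 with adjusted p = 0.0542). Of 18 measured macrophage markers, 5 were higher in iLC than in Leydig cells and 0 lower, beside 5.72% and 5.65% of all genes. The largest difference was that of the Fc receptor gene Fcgr3 (3.58). Both iLC arrays lay above both Leydig arrays for 10 of the 18, as for 5515 of all 19084 genes. They lay below both for 4 (Aif1, Cd163, Cx3cr1 and Ptprc), as for 5543 of all genes. The part of macrophage content in the Ccl6 values was not tested.

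Ccl3, Ccl4 and Ccl12, chemokines of activated macrophages, read lower on both iLC arrays than on the MEF array. Ccl3 read 4965 in MEF, 333 and 602 in iLC, then 2312 and 2539.9 in Leydig cells, with differences of -3.42 ± 0.47 (SE, adjusted p = 0.0495) between iLC and MEF and -2.39 ± 0.38 (SE, adjusted p = 0.0129) between iLC and Leydig cells. Ccl4, a close relative of Ccl3, read 5876 in MEF, 238 and 799.8 in iLC, then 2827 and 2552 in Leydig cells, with differences of -3.70 (adjusted p = 0.0863) from MEF and -2.57 (adjusted p = 0.0371) from Leydig cells. For both genes the order was MEF, Leydig, iLC with no overlap. Ccl12, a monocyte attractant, read 6205 in MEF, 168 and 309.6 in iLC, then 326 and 85.8 in Leydig cells. Its difference between iLC and MEF, -4.67 ± 0.76 (SE, adjusted p = 0.0673), was the lowest of all 19084 genes but did not pass, and it was lower in Leydig cells than in MEF, with a difference of -5.06 ± 0.76 (SE, adjusted p = 0.0156), a call lost without Leydig replicate 2. The call of Ccl3 between iLC and MEF is close to the threshold. Against Leydig cells, Ccl3 and Ccl4 lost their calls on omitting iLC replicate 1, Leydig replicate 1 or Leydig replicate 2 (up to adjusted p = 0.105 and 0.194), and Ccl4 also with an added offset of 4 and with aligned low ends (-2.55 with adjusted p = 0.0709).

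Macrophage markers were read on the same arrays. Of the 18 measured, none passed between iLC and MEF (9 at an unadjusted p under 0.05, median difference -1.44, beside -0.11 over all genes). In Leydig cells 9 were lower than in MEF and 0 higher, beside 3.97% and 3.34% of all genes. The summed intensity of the 18 was 265138 in MEF, 66826 and 139449 in iLC, then 36817 and 47443 in Leydig cells. The sum was thus higher on the iLC than on the Leydig arrays, whereas Ccl3 and Ccl4 were lower there. The complement gene C1qa read 44571 in MEF, 7452 and 12917 in iLC, then 2751 and 793 in Leydig cells, and Fcgr3 16361 in MEF, 3851 and 8549.8 in iLC, then 506 and 425 in Leydig cells. All 18 read lower on both iLC arrays than on the MEF array, as 44.4% of all genes did, and none read 0 or below on any array. The part of macrophage content in the Ccl3, Ccl4 and Ccl12 differences was not tested.

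Ccl5 and Ccl22 were read highest on the Leydig arrays. Ccl5, or RANTES, a product of T and natural killer cells, read 2585 in MEF, 1038 and 1455 in iLC, then 26755 and 21980.2 in Leydig cells. It was lower in iLC than Leydig cells, with a difference of -4.28 ± 0.34 (SE, adjusted p = 0.00159), a call kept without any 1 array, and higher in Leydig cells than in MEF by 3.22 ± 0.41 (SE, adjusted p = 0.00976), a call lost when either Leydig array was left out. Ccl22, like Ccl17 a ligand of Ccr4, read 848 in MEF, 404 and 498 in iLC, then 3343 and 1823 in Leydig cells and was lower in iLC, with a difference of -2.42 ± 0.40 (SE, adjusted p = 0.0141), which was lost when either iLC array or Leydig replicate 1 was left out (highest adjusted p = 0.084). Of 15 measured lymphocyte markers, 4 were lower in iLC than Leydig cells, and 0 were higher: Cd3d (-4.33), Gzmb (-3.06), Cd79b (-2.59) and Nkg7 (-1.72). Their summed intensity was 74631 in MEF, 26288 and 29278 in iLC, then 30183 and 42990.0 in Leydig cells, and on the MEF and iLC arrays most of it was Cd3e, which read 60754 in MEF, 17349 and 18757 in iLC, then 12023 and 11473 in Leydig cells. Cd3e was then left out, a choice made after the values were seen. The other 14 summed highest on the Leydig arrays, with 13878 in MEF, 8931 and 10521 in iLC, then 18160.0 and 31517 in Leydig cells. Of the 15 markers, 10 read above MEF on both Leydig arrays, as 6288 of all 19084 genes did. Between Leydig cells and MEF, 1 of the 15 passed as higher, Gzmb (2.81), and 1 as lower, Cd3e (-2.37). Ncr1 was the 1 marker at or below 0, on iLC replicate 1. Their part in the Ccl5 and Ccl22 values was not tested.

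**Figure D3:**
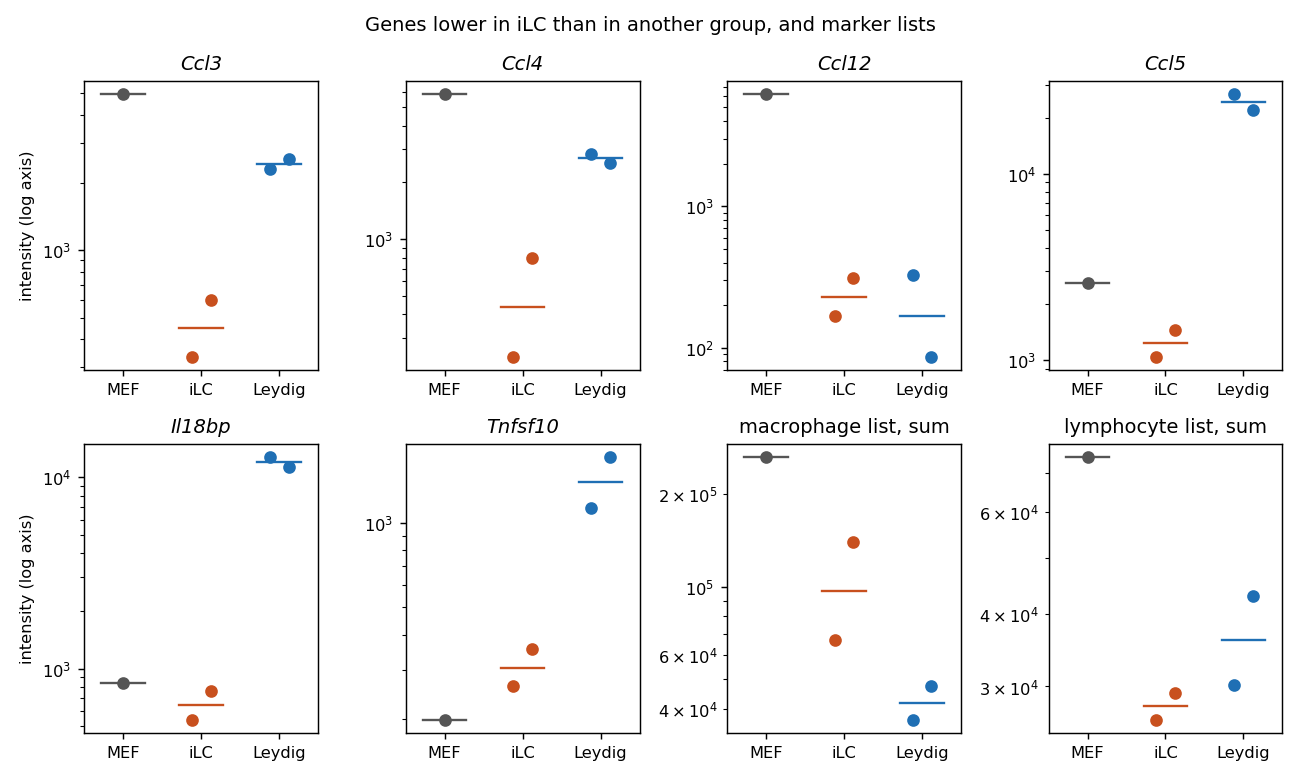
Probe intensity (log axis) of 6 genes that read lower in iLC than in at least 1 other group, and the summed intensity of the 18 macrophage and 15 lymphocyte markers, 1 point per array with a line at each group's geometric mean. Ccl3, Ccl4, Ccl12 and the macrophage sum are highest on the MEF array, whereas Ccl5, Il18bp and Tnfsf10 are highest on the Leydig arrays. On the iLC arrays Ccl3 and Ccl4 lie below the Leydig arrays, and the macrophage sum lies above them.

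Several of these genes lie next to each other in the RefSeq gene order. The ELR-type genes Cxcl5, Cxcl3, Cxcl15, Cxcl1 and Cxcl2 form a run with at most 3 other protein-coding genes between neighbours, and all 5 had positive differences in both iLC comparisons, Cxcl15 the smallest (0.62 and 0.47). Ppbp and Pf4, platelet CXC chemokines outside the naming rule, were also higher in iLC than in Leydig cells, by 5.20 (adjusted p = 0.00288) and 3.65 (adjusted p = 0.00708). The runs of CC chemokines held differences of both signs, and no test of likeness between neighbours was made. In the run Ccl2, Ccl7, Ccl11, Ccl12 and Ccl1, the differences between iLC and MEF were 1.41 for Ccl2, 1.29 for Ccl7, 4.05 for Ccl11 and -4.67 for Ccl12, none past the test. In the run Ccl5, Ccl9, Ccl6, Ccl3 and Ccl4, Ccl6 was higher and Ccl5, Ccl3 and Ccl4 lower in iLC than Leydig cells, the adjacent Ccl3 and Ccl4 by similar amounts (-2.39 and -2.57). Ccl17 and Ccl22 are neighbours by the same measure, and against Leydig cells Ccl17 was higher by 4.34 and Ccl22 lower, with a difference of -2.42.

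**Figure D4:**
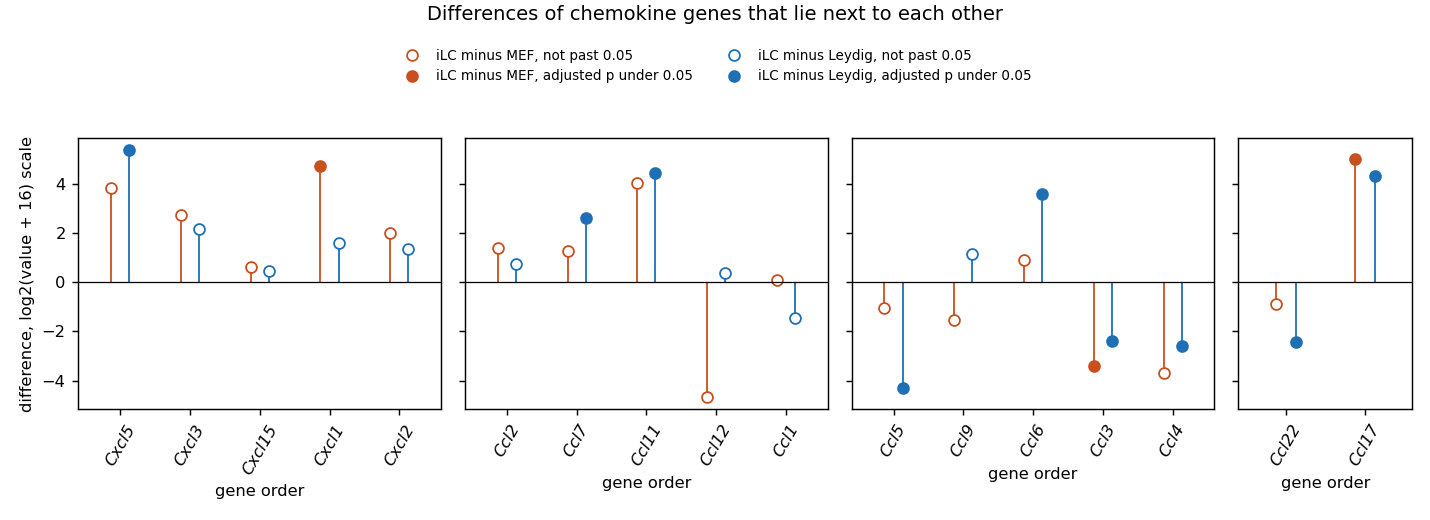
Differences on the log2(value + 16) scale of 4 runs of neighbouring chemokine genes, in gene order and not to genomic scale; filled points have an adjusted p under 0.05. The CXC run on the left is positive throughout, and each of the CC runs holds genes on both sides of 0.

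Of the 16 chemokine receptors, none passed between iLC and MEF (1 at an unadjusted p under 0.05) and 1 was lower in iLC than Leydig cells. This was Ccr7, a lymph node homing receptor, with 445 and 345 in iLC against 1427 and 1248 in Leydig cells and a difference of -1.73 ± 0.32 (SE, adjusted p = 0.021), lost when any 1 of the 4 arrays of iLC or Leydig cells was omitted (highest adjusted p = 0.104). Cxcr4, the receptor of Cxcl12, read 836 in MEF, 285 and 356 in iLC, then 246 and 765 in Leydig cells and did not pass. No receptor of the ELR-type chemokines passed in any comparison: Cxcr2 read 25.9 to 122 and Cxcr1 205 to 675 over the 5 arrays, below the median of each array. These were named after their values were seen. Of 15 chemokine system genes outside the rule, none passed between iLC and MEF (5 at an unadjusted p under 0.05), and 3 were higher and 3 lower in iLC than Leydig cells. The largest were Ppbp and Pf4, given above, and the lymphocyte and endothelial ligands Xcl1 (-2.47) and Cx3cl1 (-2.22). The scavenging receptor Ackr3, which binds Cxcl12, read 337 in MEF, 512 and 521 in iLC, then 656 and 424 in Leydig cells and did not pass.

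Of the 11 TNF superfamily ligands, Tnfsf11 was the 1 gene that passed between iLC and MEF, and between iLC and Leydig cells Tnfsf11 was higher and Tnfsf10 lower. Tnfsf11 differed from Leydig cells by 5.10 ± 0.33 (SE, adjusted p = 0.00109) and kept that call without any 1 array. Its difference between Leydig cells and MEF was -1.11 (adjusted p = 0.194). Tnfsf10, the death ligand TRAIL, read 199 in MEF, 262 and 355 in iLC, then 1128 and 1717 in Leydig cells, lower in iLC than Leydig cells, with a difference of -2.13 ± 0.36 (SE, adjusted p = 0.016) and higher in Leydig cells than in MEF by 2.71 ± 0.44 (SE, adjusted p = 0.0197). The first of these calls was lost when either iLC array or Leydig replicate 2 was left out, and the other when either Leydig array was left out (highest adjusted p = 0.103 and 0.0984). Tnfsf13b, the B cell survival factor BAFF, read 1973 in MEF, 1531 and 530.4 in iLC, then 2998 and 3988 in Leydig cells and did not pass. Tnfsf9, the ligand of 4-1BB, read 7111 in MEF, 4411 and 4574 in iLC, then 3656 and 3036 in Leydig cells and did not pass either.

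Tnfrsf11b, or osteoprotegerin, a secreted decoy that binds Tnfsf11, read 11372 in MEF, 13348 and 40473 in iLC, then 1011 and 897 in Leydig cells. It was higher in iLC than in Leydig cells by 4.59 ± 0.54 (SE, adjusted p = 0.00486) and lower in Leydig cells than in MEF, with a difference of -3.56 (adjusted p = 0.0294), while its difference between iLC and MEF was 1.03 (adjusted p = 0.52). The signalling receptor Tnfrsf11a, or RANK, was named after its values were seen. It read 1575 in MEF, 146 and 165 in iLC, then 174 and 60.5 in Leydig cells, with differences of -3.21 (adjusted p = 0.083) between iLC and MEF and -3.72 (adjusted p = 0.0176) between Leydig cells and MEF. The MEF array was the highest for this receptor, and the part of macrophage content in that value was not tested. Of the 27 measured TNF receptor genes, none passed between iLC and MEF (7 at an unadjusted p under 0.05; median difference -0.10), and 4 were higher and 2 lower in iLC than Leydig cells. Besides Tnfrsf11b the largest were Cd40 (-3.02), Tnfrsf23 (3.01) and Relt (2.83). None of the 7 TNF ligands outside the rule passed in any comparison (at an unadjusted p under 0.05, 0 between iLC and MEF and 1 in each of the others). Of 12 colony stimulating factors and receptors, none passed between iLC and MEF (0 at an unadjusted p under 0.05), and between iLC and Leydig cells Csf1r (2.29) and Kitl (1.52) were higher and Flt3l (-1.99) lower.

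More than 1 probe was present for 17 of the 135 genes, with 19 further probes in all. No probe of these genes passed between iLC and MEF (Benjamini-Hochberg over all genes or probes). Of the genes described, Cxcl14 had a dimmer probe at 4882 in MEF, 35732 and 29109.7 in iLC, then 4157 and 909.7 in Leydig cells, again highest on the iLC arrays. Il6ra, Il7, Il34, Il17ra and Il1rap had further probes too. The other Il6ra probe read 1384 in MEF, 813 and 924 in iLC, then 604 and 1308 in Leydig cells, highest on the MEF array, unlike the probe used. Further probes of Il17re, Tnfsf15, Cxcl9, Ccr2 and Il1rap gave calls between iLC and Leydig cells where the probe used here gave none. These were named after their values were seen. The other Tnfsf15 probe read 2608 in MEF, 2740.2 and 4942 in iLC, then 297 and 252 in Leydig cells (adjusted p = 0.00338), whereas the probe used lay between 1781 and 2808 on all arrays. Probes of 1 gene can therefore disagree on this array, and each value above stands for its probe.

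**Figure D5:**
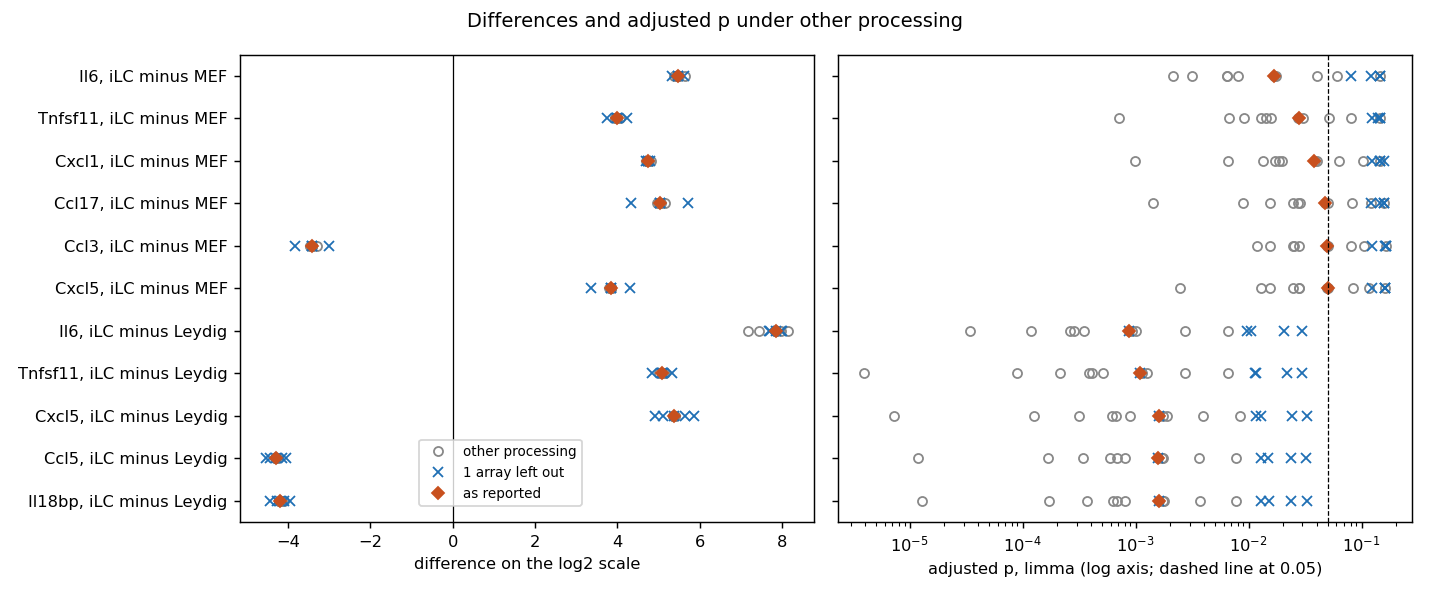
Log2 difference (left) and adjusted p (right, log axis, dashed line at 0.05) of 11 results as reported, with 1 array left out and under other processing, without the replicate block. The differences stay on their side of 0 throughout, and the 5 between iLC and MEF that passed cross the dashed line when 1 of the 4 iLC and Leydig arrays is left out.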

How the data were processed

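The authors deposited 1 linear intensity per probe and sample, with 0 columns of no sample. Per the labels' protocols, amplified Cy5-labelled RNA went onto single-colour arrays. Background correction and scaling: not given in the sources used here. Probes were named through the platform annotation (21876 with 1 symbol, 0 with several, 4547 with none), and all 154 probes of the rule matched a RefSeq gene ID with the same symbol. For each gene the probe with the highest mean log2 value over the 5 arrays was used. Values below 0 were set to 0, 16 was added and log2 taken. Group means were compared with limma 3.58.1 under R 4.3.3 (lmFit, eBayes; 2 residual and 4.21 prior degrees of freedom; all 5 arrays), two-sided, with Benjamini-Hochberg adjustment over 19084 genes and a threshold of 0.05. MEF, with 1 array, took its variance from the other groups. The fit was tested on simulated data.

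The genes, lists and tests were chosen with earlier results of these data known. Named are all genes past the threshold, the 6 largest non-overlapping differences each way among genes brighter than the median gene, 27 genes fixed by name, up to 4 called genes of each list, and others where marked. Il1b, Cxcl2 and Cxcl3 met none of these rules and were named after their values were seen. Alternatives were other offsets, centring, quantile normalization, aligned low ends, a floor, a filter on dim genes, other probe rules, an intensity trend, 2-group fits, a replicate block and leaving out each array. Motifs were searched in RefSeq windows. Only 4 of the marker lists are used here: macrophage, lymphocyte, Leydig cell, germ cell. The other lists gave 0 calls between iLC and MEF. Between iLC and Leydig cells, 1 marker was higher and 0 lower in the neutrophil and mast cell list, 2 and 1 in the endothelial, 5 and 2 in the fibroblast, 1 and 2 in the Sertoli and 5 and 0 in the myoid list. Between Leydig cells and MEF these counts were 0 and 1, 1 and 2, 1 and 6, 2 and 1, and 0 and 5, in the same order.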

Additional observations from a re-analysis of the deposited data

How the results depend on the processing

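Of 107 differences of named genes, 39 passed the threshold, and 7 of these did so under every alternative that held the gene. All 7 were between iLC and Leydig cells: Il6, Tnfsf11, Cxcl5, Ccl20, Ccl7, Ccl5 and Il18bp. Il6 and Ccl20 are dimmer than the median gene, so the fit with only brighter genes did not test them. None of the 39 changed sign under any alternative, and 16 of the other 68 changed sign under at least 1. The counts that moved by more than 1.5 times were these, each with the share of all genes called the same way. Between iLC and MEF (4 higher, 1 lower), 1 was higher (0.0367%) and 0 lower (0%) with an offset of 4, and 3 were lower (0.87%) with an offset of 64. With each array centred on its median, 7 were higher (0.817%) and 3 lower (1.35%), and quantile normalization gave the same counts (0.865% and 1.07%). With low ends aligned, limma called 0 higher (0.0314%) and 0 lower (0%), and likewise in the fit with only the arrays of these groups (0% and 0%), while at an unadjusted p under 0.05 there were 30 and 36. With only genes brighter than the median gene, which left 45 of the 135 genes, 9 were higher (2.52%) and 0 lower (1.88%). With probes averaged per gene 0 were lower (0.262%), with the floor 2 (0.964%) and with an intensity trend 2 (0.713%). Leaving out 1 iLC or Leydig array gave 0 higher and 0 lower in limma (0% and 0%), with 28 to 36 at an unadjusted p under 0.05. Between iLC and Leydig cells, leaving out 1 array gave 6 to 15 higher (1.75 to 5.72%) and 3 to 10 lower (1.9 to 5.65%). Between Leydig cells and MEF, quantile normalization gave 9 higher (4.95%), the fit with only these groups 3 higher (2.25%), and only brighter genes 2 lower (7.74%), and leaving out 1 array gave 0 to 3 higher (0.414 to 2.25%) and 0 to 4 lower (0.388 to 2.8%). The cause of these moves was not tested, beyond the fewer arrays or genes in those fits that leave some out. In the ranges between iLC and Leydig cells, the upper ends (15 higher and 10 lower) came from leaving out the MEF array. As the 1 MEF array adds no spread, that fit repeats the main one and tests nothing. Leaving out any iLC or Leydig array gave fewer calls in both directions. Replicate numbers of iLC and Leydig arrays share no source in the labels, and deviations of same-numbered arrays correlated at 0.056 across genes. A fit with the number as a replicate block, with 1 residual degree of freedom, gave 19 higher (7.77%) and 20 lower (10.3%) between iLC and Leydig cells. No measure of signal over background was used here, and 90 of the 135 genes were dimmer than the median gene, where unequal low ends weigh most.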
